A study of Mus musculus with 5 samples.

Results

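PABPC1 is the main cytoplasmic poly(A) binding protein. The sites described here are bases near the 3' end of mRNAs at which tags recovered with it carried deletions. They were chosen by position alone. Each of the 11907 deletion sites deposited for the series was placed by strand on the GENCODE M21 basic transcripts of the mouse genome build mm10. Sites in a 3' UTR less than 100 spliced nt from the nearest annotated transcript end downstream were kept. These near-end sites numbered 4086, which is 34.3% of all sites and 46.7% of the 8755 sites in 3' UTRs (95% Wilson interval 45.6 to 47.7). The other 4669 sites in 3' UTRs, 100 nt or more from an end, are called distant sites and serve as the comparison. Within that limit 57.1% of the near-end sites lay 10 to 39 nt before the annotated end (55.6 to 58.6), and all 4086 lay in protein-coding genes, 2178 in number. Of the 10211 protein-coding genes with an RPKM of at least 1, a measure of mRNA level explained below, 2155 held such a site, which is 21.1%.

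The series comprises 3 CLIP-seq samples, given as biological replicates, in which RNA cross-linked to PABPC1 was recovered with an antibody, and 2 mRNA-seq samples of polyadenylated RNA. All come from MEL cells, a mouse erythroleukemia line, and no treatment or genotype distinguishes them. The deposited lists and RPKM values are named as day 0. Cells were irradiated repeatedly with ultraviolet light at 400 mJ/cm2 and the lysate was digested with RNase for 10 min. The authors pooled the CLIP-seq samples into 1 list of deletion sites and 1 list of peaks, and gave 1 RPKM value per gene (reads scaled to gene length and library size) for the mRNA-seq samples. No value below therefore has a replicate error. Intervals are 95% Wilson intervals for shares and order-statistic intervals for medians, they cover counting error only, and no p-value is given because sites of 1 list are not replicates. All 9 erythroid markers listed for the check had an RPKM of at least 1, with Klf1 at 428 RPKM, Epor at 225 and Gata1 at 211, as did 2 of 6 fibroblast markers, Thy1 at 65.3 and Pdgfrb at 2.60, and 0 of 6 markers of other blood cells.

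Most mammalian mRNAs end a short way downstream of a poly(A) signal, the hexamer AATAAA or, less often, ATTAAA. In the nucleus the cleavage and polyadenylation machinery reads that signal, cuts the transcript downstream of it and adds the poly(A) tail. In the cytoplasm PABPC1 coats the tail and acts in translation and mRNA turnover. The signal itself stays in the mature mRNA as part of its 3' UTR. A deletion can arise in the sequenced copy when reverse transcriptase passes a base that was cross-linked to protein. Such a deletion reports contact more finely than a peak does.

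Deletions at mRNA ends recurred at the beginning of AATAAA. A strong site of this kind is shown first for each of 5 mRNAs. The stretches run 5' to 3' with T for U, the capitals mark the signal, and the deleted base is base 16 of each stretch. They were read from GENCODE M21 transcripts.
Hbb-bs, chr7:103826542-103826571, minus strand: tctgtcttctgacaAATAAAaagcatttat
Mif, chr10:75859360-75859389, minus strand: ttccagccgggagaAATAAAtggtttataa
Prkcsh, chr9:22014187-22014216, plus strand: ctgtgacctcagaacAATAAAtgtgacttg
Rps24, chr14:24495822-24495845, plus strand: gatttctgagaggacaAATAAAct
Ndufa11, chr17:56722099-56722128, plus strand: ccaaacccctgtgacaAATAAAcgctgtat
In the beta-globin mRNA Hbb-bs the base was deleted in 561 of 4280 tags, 22 nt before the end. The cytokine mRNA Mif had 377 deletions in 1951 tags, and Prkcsh, the beta subunit of glucosidase II, had 363 in 2034. Rps24, of the small ribosomal subunit, had 283 in 1052, and Ndufa11, of respiratory complex I, had 239 in 998. The deleted base of the Prkcsh stretch is the first A of the signal, that of Hbb-bs the second, and that of Rps24 the A just before it.

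The distances to the end were uneven. The median distance was 31 nt, with quartiles at 22 and 53 nt, and the most frequent single distance was 21 nt, with 142 sites. The bin of 20 to 29 nt held 1167 sites, against 564 in the bin of 10 to 19 nt, 603 in that of 30 to 39 nt and 183 in the last 10 nt. These distances are what the sites were chosen on and are given as a description. Beyond the limit the density went on falling, with 136 sites from 100 to 109 nt and 75 from 190 to under 200 nt. At the limit itself adjoining sites were split. Rtca, an RNA cyclase, had a site at 99 nt with 83 deletions and the adjoining one at 100 nt with 83. Hnrnpa2b1 had 67 deletions at 99 nt and 68 at 100 nt. The other sites just inside were those of Mgea5 (49 deletions), Eed (34) and Dpysl2 (26), and just outside were those of Psat1 (95), Rab1a (23) and Myh9 (23).

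**Figure D1:**
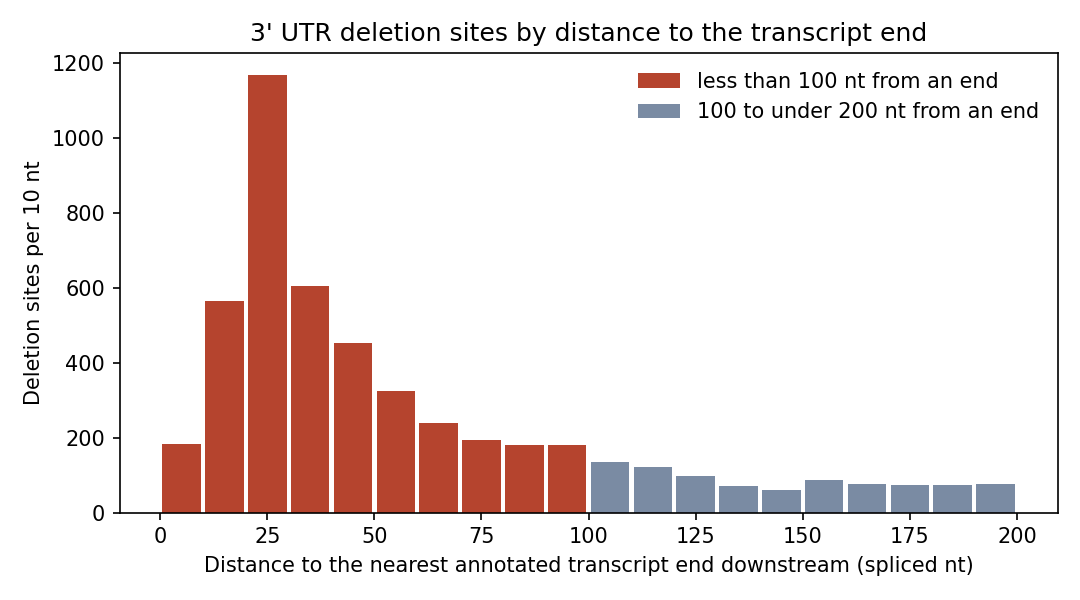
Number of 3' UTR deletion sites in each 10 nt of distance (x axis, spliced nt) to the nearest annotated transcript end downstream, for near-end sites (red) and for sites at 100 to under 200 nt (grey-blue). The bin of 20 to 29 nt holds 1167 sites and the bin that starts at 190 nt holds 75.

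A signal lay near most ends whether or not a given base was deleted, so each share was set beside all positions before the same 2283 ends, weighted to the distances of the sites. AATAAA or ATTAAA began within 50 nt of 79.2% of near-end sites (78.0 to 80.5), beside 77.2% of those positions. Closeness to a signal at that scale was thus nearly the same for deleted bases and for any base. The place relative to the signal differed. Deletions fell in the run of A that opens AATAAA, counting any A directly before it, at 1092 near-end sites, 26.7% (25.4 to 28.1), beside 5.58% of positions, a ratio of 4.79. In the run of A that closes the same hexamer there were 105 sites, 2.57% (2.13 to 3.10), beside 5.45% of positions, a ratio of 0.472. The opening run thus held more sites than the closing run, and those sites came from 932 genes and carried 30.3% of all near-end deletions.

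Deletions were also scarce between the signal and the end. Bases 6 to 50 nt after the first base of the nearest signal held 285 near-end sites, 6.98% (6.23 to 7.80), beside 16.5% of positions. The stretch from 20 to 2 nt upstream of the signal held 1050 sites, 25.7% (24.4 to 27.1), beside 28.3%. By single base, the second base of the signal held 481 sites, the first 309 and the base before it 301, while the base at 2 after the first held 67 and the last base 22.

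**Figure D2:**
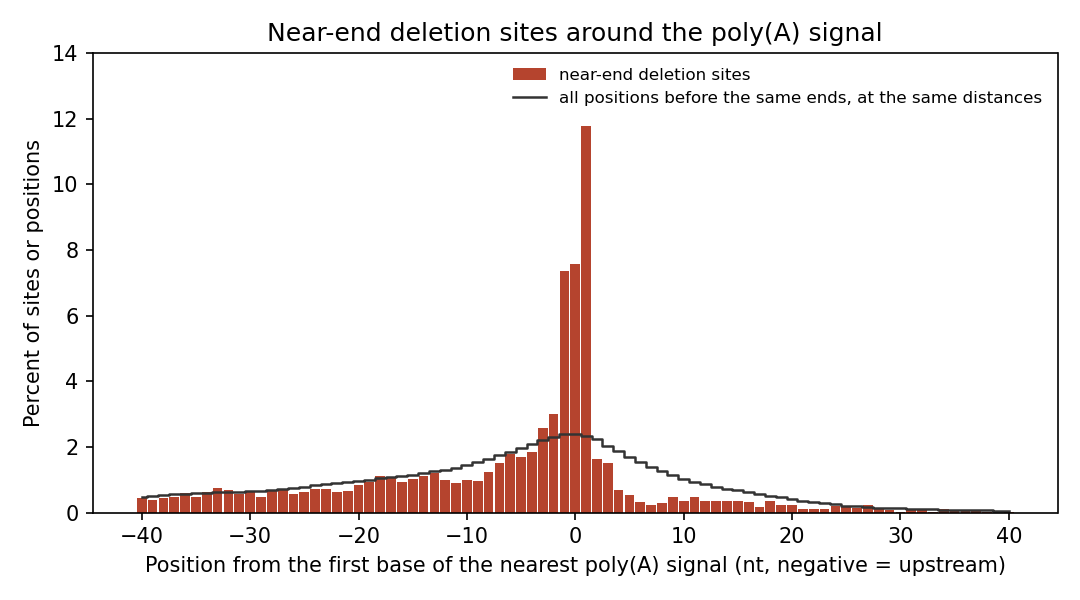
Position of near-end deletion sites (red bars, percent of 4086 sites) relative to the first base of the nearest poly(A) signal (x axis, nt), with all positions before the same ends at the same distances as a line. The bar at the second base of the signal reaches 11.8%, and the line stays at or below 2.39%.

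The exact base within such a run was not resolved, and its place went with the strand of the gene. Of near-end sites in a run of 2 or more identical bases, those on the plus strand lay on the first base of the run in 81.2% of 1555 cases, and those on the minus strand lay on the last base in 77.3% of 1574. Around AATAAA, plus-strand sites numbered 249 just before the signal, 232 on its first base and 27 on its second, while minus-strand sites numbered 43, 69 and 445 at these bases. In genome coordinates both are the lowest base of the run. The run, not the single A, is therefore the unit that these data place. Near-end sites lay in a run of 2 or more in 76.6% of cases, beside 54.2% of positions.

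The 2 signals differed. Where the nearest signal was AATAAA, 1065 of 2803 near-end sites lay from 1 base before it to its second base, 38.0% (36.2 to 39.8), beside 4.6% of positions nearest to AATAAA. Where it was ATTAAA, 26 of 435 did, 5.98% (4.11 to 8.61), beside 4.72%. Unlike the shares above, these 2 shares of positions were not weighted to the distances of the sites. With that weighting, and both signals together, the place made up 7.10% of all positions, beside 26.7% of near-end sites. Weighted shares for each signal were not computed, so whether ATTAAA sites exceeded them was not tested. The 3 strongest sites at its start are shown in the same way, with the deleted base again base 16.
Xbp1, chr11:5525858-5525887, plus strand: aaactacccttgcaATTAAAaaaaaagcaa
Npepps, chr11:97205866-97205895, minus strand: tttaaaaaataataATTAAAaaacagttgg
Rab14, chr2:35182163-35182182, minus strand: tcttactgggtttaATTAAA
In each of them the deletion fell on the second base of the signal, a T. Xbp1, a transcription factor of the unfolded protein response, had 80 deletions in 314 tags, the peptidase mRNA Npepps 38 in 382, and the small GTPase mRNA Rab14 26 in 233.

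The same placement was present at distant sites, so it was not particular to sites near an annotated end. Which ends the mRNAs of these cells used was not determined here. Of 1208 distant sites nearest to an AATAAA, 398 lay from 1 base before it to its second base, 32.9% (30.4 to 35.6). Counted over all sites of both kinds of signal, that place held 26.7% of near-end sites (25.4 to 28.1) and 8.82% of distant sites (8.04 to 9.67). Among all positions it made up 7.10% before the ends of near-end sites and 0.503% in the 3' UTRs of distant sites. The ratio to positions was 3.76 for near-end sites and 17.5 for distant sites.

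At the deleted base near-end sites were A in 49.2% (47.7 to 50.7) and T in 44.5% of cases (43.0 to 46), and distant sites were A in 41.8% (40.4 to 43.2) and T in 52.0% (50.5 to 53.4). C and G were scarce in both, at 3.11% and 3.23% of near-end sites. A outnumbered T in 2 of the 10 bins of distance: A made up 71.1% of sites 10 to 19 nt before the end and 69.7% of those at 20 to 29 nt, and between 26.4% and 38.8% in each of the other 8 bins. In the last 10 nt T made up 62.3% of 183 sites (55.1 to 69.0), beside 31.7% of positions there. At 4 nt downstream of the deleted base A made up 57.2% of near-end sites, beside 47.6% of distant sites.

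**Figure D3:**
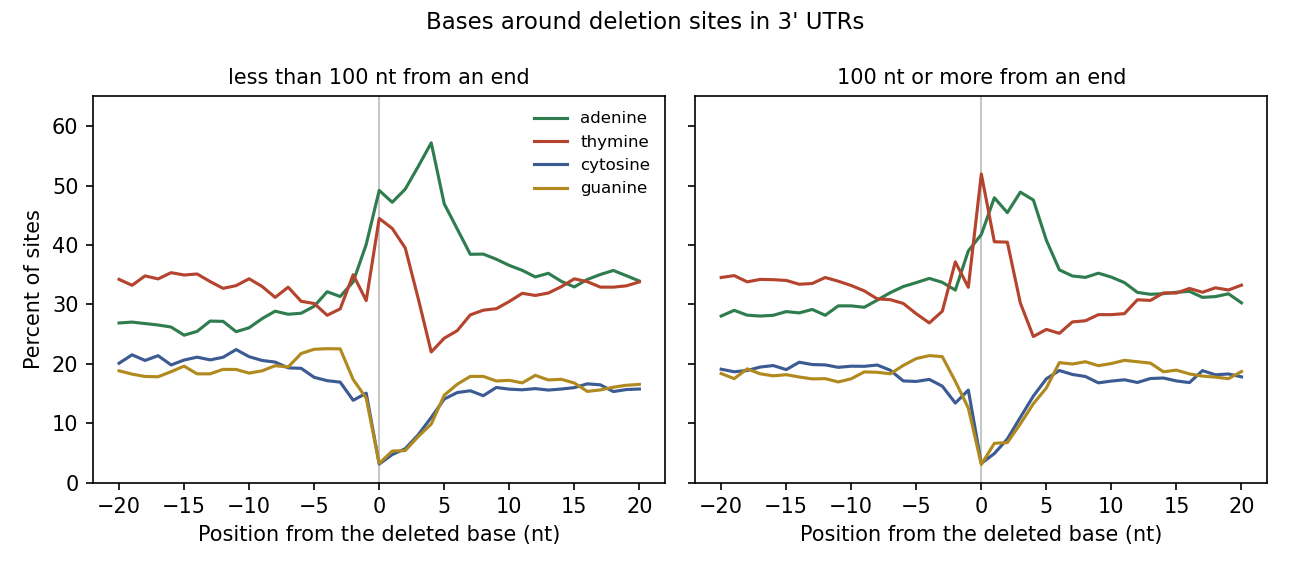
Percent of sites (y axis) with each base from 20 nt upstream to 20 nt downstream of the deleted base (x axis), for near-end sites on the left and distant sites on the right. Adenine reaches 57.2% at 4 nt downstream in near-end sites, and thymine at the deleted base stands at 44.5% on the left and 52.0% on the right.

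ATATAA, which is neither of these signals, marked fewer near-end sites than distant ones. It lay within 20 nt of 310 of the 3339 near-end sites with a full window, 9.28% (8.35 to 10.3), and of 15.2% of 4669 distant sites (14.2 to 16.3). Among positions it lay in 4.00% of windows before these ends and in 1.77% of those in the 3' UTRs of distant sites. AAAAAA showed the same order, with 9.10% of near-end sites (8.18 to 10.1) and 13.6% of distant sites (12.6 to 14.6), beside 7.24% and 3.18% of positions. AATAAA lay in the window of 48.8% of near-end sites (47.1 to 50.5) and of 17.7% of distant sites (16.6 to 18.8), beside 39.2% and 3.50% of positions. Positions were weighted to the distances of the sites for near-end sites alone. The hexamers were searched on the sense strand, can overlap one another and were counted separately.

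Near-end sites beside ATATAA and without AATAAA or ATTAAA within 50 nt are shown by the 3 with the most deletions, 1 a gene. The capital marks the deleted base, which is base 16.
Arl2bp, chr8:94674319-94674348, plus strand: attagactttaagggAtataagctaagctc
Ralgapa1, chr12:55602980-55603009, minus strand: acaaaccacagaataTaaattatgtatcat
Thra, chr11:98765075-98765104, plus strand: caagcaaggggagaaTataaatgaagaaaa
In Ralgapa1 and Thra the ATATAA overlaps AATATA and TATAAA, which are among the single-base variants of AATAAA counted below. Arl2bp, which encodes a binding partner of the GTPase ARL2, had 146 deletions in 308 tags. Ralgapa1, the catalytic subunit of a Ral GTPase-activating complex, had 131 in 312, and the thyroid hormone receptor mRNA Thra had 77 in 196. Of the 360 near-end sites within 20 nt of ATATAA, 59 lay on its first base, 58 on its second, 71 at 3 bases after the first and 74 at 4 bases after it, and none at 2 or 5 bases after it. On the plus strand 58 and 55 lay on the first and second bases and 0 and 1 at 3 and 4 bases after the first. On the minus strand 71 and 73 lay at 3 and 4 bases after it, and 1 and 3 on the first and second. Here too the place went with the strand. Removing the first and second bases of ATATAA leaves the same sequence as removing those at 3 and 4 bases after the first. Whether such adjoining sites were 1 deletion of 2 bases, counted at each, was not tested. With sites within 10 nt joined, ATATAA lay by 6.92% of near-end sites and 10.9% of distant sites.

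Sites beside ATATAA were deleted in a larger share of their tags. The median deletion share was 16.4% for near-end sites beside ATATAA (14.8 to 17.6), 7.61% beside AATAAA (7.32 to 7.90) and 8.38% beside none of the 3 hexamers searched (7.78 to 8.93). Their median coverage was 129.5 tags beside ATATAA and 255 beside AATAAA. Coverage thus moved with this difference, and its part in it was not tested.

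Near-end sites as a whole were covered more deeply and deleted in a smaller share of tags than distant sites. They had a median of 206 tags (196 to 213), against 122 at distant sites (117 to 128), and a median of 15 deletions against 12. The median deletion share was 8.33% (8.0 to 8.59), against 13.0% at distant sites (12.5 to 13.5). Within classes of coverage the gap varied. Under 100 tags the medians were 18.8% (17.8 to 20.0) and 23.7% at distant sites (22.9 to 24.4). From 100 to under 300 tags they were 8.19% (7.89 to 8.45) and 9.05% (8.75 to 9.57), and these intervals did not overlap either. From 300 to under 1000 tags they were 4.75% (4.39 to 5.03) and 4.97% (4.58 to 5.34). At 1000 tags or more they were 2.53% (2.21 to 3.06) and 2.46% (2.08 to 3.18). In both sets the median share fell as coverage rose. The list holds only the sites that the authors kept, and no near-end site had fewer than 3 deletions. How far that selection set the shares was not tested. A peak on the same strand covered 97.5% of near-end sites (97.0 to 97.9) and 96.3% of distant sites (95.8 to 96.8). Both lists were made from the same tags. Peaks of at least 74 tags covered 90.5% of near-end sites (89.6 to 91.4) and 80.3% of distant sites (79.1 to 81.4).

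Some near-end sites had no signal or variant of it nearby. A signal or 1 of 11 single-base variants began within 50 nt of 91.9% of near-end sites (91.0 to 92.7) and of 74% of distant sites (72.7 to 75.2). The strongest exceptions are shown, and the capitals mark the run that holds the deleted base, base 16.
Cox5a, chr9:57532327-57532356, plus strand: agttgcctggaaatgTTTTatttgaacaaa
Ddx39b, chr17:35253586-35253615, plus strand: tgcttctctctgcgtCaccaccactcctaa
Ywhaz, chr15:36771569-36771587, minus strand: tttgaatgcagagTTTatc
Cox5a, a subunit of cytochrome c oxidase, had 222 deletions in 617 tags, 84 nt before the end. The RNA helicase mRNA Ddx39b had 188 in 385. The A and C that follow its marked base had 188 each too, in a stretch that repeats cac. Ywhaz, a 14-3-3 protein, had 147 in 611 only 3 nt before the end.

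The sites deleted in the largest share of tags differed in sequence from those at the signal. Among sites with at least 100 tags, taking 1 a gene, the first 4 are shown in the same way.
D8Ertd738e, chr8:84246238-84246257, minus strand: cccaataaagctgtgTcaca
Hbb-bs, chr7:103826571-103826600, minus strand: gttggcaaaatgatAAAgacatttgaaaat
Tomm40, chr7:19701338-19701367, minus strand: tacagAAAAAAAAAAActtaaaaaacaaaa
Sptssa, chr12:54645411-54645440, minus strand: gactacTTTTTTTTTTgatgtaaactcatt
In D8Ertd738e 128 of 131 tags were deleted, 97.7%, at 4 nt before the end. In Hbb-bs it was 836 of 1064, 78.6%, in Tomm40, a pore protein of the outer mitochondrial membrane, 120 of 189, 63.5%, and in Sptssa, a subunit of serine palmitoyltransferase, 67 of 125, 53.6%. The deleted bases of Tomm40 and Sptssa lay in runs of 11 A and 10 T. Whether deletions in so large a share of tags came from cross-linking was not tested. The next 6 were Hint1, Ddx39b, Hdgf, Nsfl1c, Arl2bp and Tmem109, between 46.8% and 50%, and none of the 10 lay at the start of a signal.

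Deletions were summed over the sites of a gene, so a tag deleted at adjoining bases counts at each. By this sum Hbb-bs carried the most near-end deletions, 2667 at 13 sites from 20 to 67 nt before the end. A pair of adjoining bases, 50 and 51 nt before the end, had 835 and 836 of them. Its near-identical neighbour Hbb-bt followed with 705 at 12 sites, and tags of the pair may have been split between them, as no source used here gives the handling of shared tags. Their RPKM were 19.6 and 5.61. Ndufa13, of respiratory complex I, had 1243 deletions at 9 sites. Its 6 sites from the base before AATAAA to 4 bases after its first base were nearly even, with 146 to 196 deletions each at 3084 to 3195 tags.

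Elob, which encodes elongin B, had 1100 deletions at 6 sites, 83 to 98 nt before the annotated end, and all 6 had an AATAAA within 50 nt. Its strongest, with 633 deletions in 2712 tags, was the T of the signal. Mt1, a metallothionein that binds zinc, had 1014 deletions at 7 sites, the strongest 3 bases before the signal with 438. Car1, a carbonic anhydrase of the red cell, had 687 at 8 sites, of which 428 were 2 bases before the signal. Hnrnpa2b1, a splicing regulator, had 785 at 9 sites and the glycolytic Aldoa 710 at 12, all between 54 and 99 nt before the end and none at the start of a signal. Ddx39b had 667 at 4 sites, 48 to 75 nt before the end. Its adjoining bases at 73, 74 and 75 nt had 188 each, and whether these were the same tags was not tested.

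By number of sites Serbp1, an mRNA-binding protein, led with 17, though with only 341 deletions. They lay before more than 1 annotated end, and only 2 of them had a signal within 50 nt. Ubl5, a ubiquitin-like protein, had 10 sites, and the splicing factor gene Hnrnpm had 10. In Hnrnpm 7 adjoining sites covered the base before AATAAA and the whole hexamer, with 10 to 30 deletions each. Txnl1, a thioredoxin-like protein, also had 10. Of the 2178 genes, 1177 had a single site and 116 had 5 or more.

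Abundant mRNAs carried near-end sites more often. The share of genes with a site was 6.71% at 1 to 10 RPKM (5.88 to 7.64), 15.8% at 10 to 30 (14.6 to 17.0), 31.3% at 30 to 100 (29.6 to 33.1) and 53.2% at 100 or more (50.2 to 56.1). Whether scarce mRNAs lacked a site because too few tags covered them was not tested. Genes with a site had a median RPKM of 47.7, against 15.6 for genes without. Their longest annotated 3' UTR had a median of 824 nt (762 to 871), against 1089 nt for the others (1052 to 1123). The lengths were not compared at like RPKM. Over genes with and without a site, the median 3' UTR was 1201, 1260, 869 and 522 nt in the 4 classes, from low to high RPKM. A share of A in the last 100 nt with a median of 31.0% was found in genes with a site and in those without.

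The signal of the mRNA went with the presence of a site at like abundance. Each gene was classed by the hexamer that begins up to 40 nt, and ends at least 10 nt, before its most distal annotated end. At 100 RPKM or more, 40.6% of 710 genes with AATAAA held a site at that end (37.0 to 44.2), 28.3% of 166 with ATTAAA (22.0 to 35.6), 21.8% of 147 with a variant (15.9 to 29.1) and 11.9% of those with none of these (6.93 to 19.6). At 30 to 100 RPKM the shares were 24.1% (22.2 to 26.2), 9.95% (7.33 to 13.4), 10.0% (7.16 to 13.9) and 6.61% (4.11 to 10.5). AATAAA had the highest share in all 4 classes of abundance. At 1 to 10 RPKM its share was 5.29% (4.38 to 6.39), and that interval overlapped the one for variants, 2.54% (1.34 to 4.75). The 4 groups also differed in 3' UTR length. At 100 RPKM or more the medians were 458 nt with AATAAA, 698.5 with ATTAAA, 559 with a variant and 629 with none. The part of length in these shares was not tested. The most distal end was the nearest one for 56.2% of near-end sites in genes that could be classed (54.7 to 57.8), and 1782 sites lay before another annotated end of their gene.

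**Figure D4:**
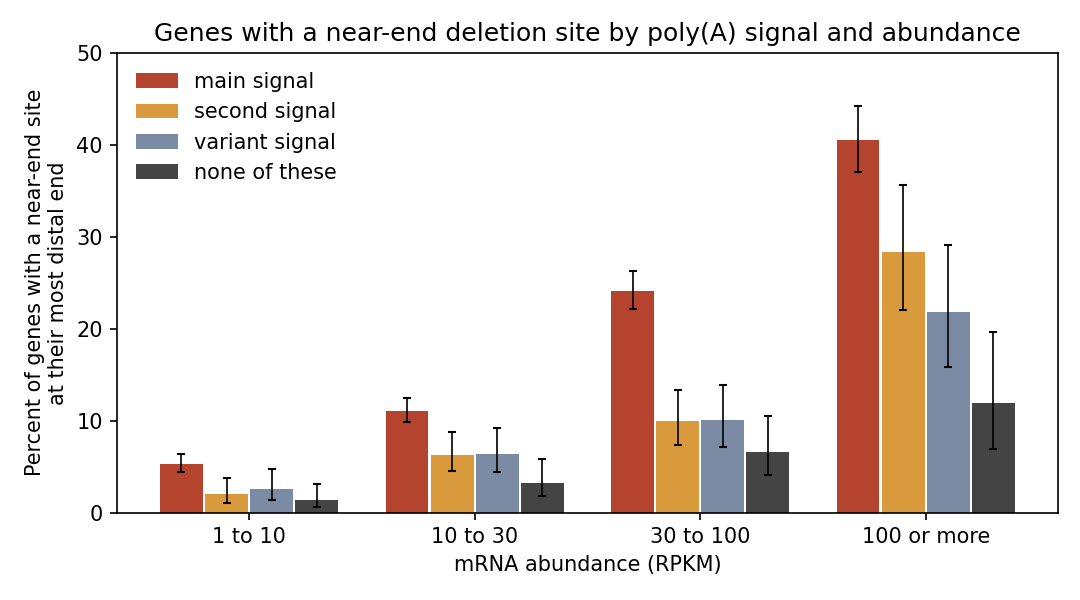
Percent of protein-coding genes with a near-end deletion site at their most distal annotated end (y axis, bars with 95% Wilson intervals), by RPKM class (x axis) and by the poly(A) signal before that end: AATAAA (main), ATTAAA (second), a single-base variant or none. Genes with the main signal reach 40.6% at 100 RPKM or more, against 11.9% for genes with none.

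Gene groups held near-end sites broadly as their abundance went. The 12 groups were described by counts beside the 21.1% of all protein-coding genes and beside the share that all genes of like RPKM class would give. Among erythroid genes 13 of 27 held a site, 48.1% (30.7 to 66.0), beside 35.3% for like RPKM. They included the transcription factors Gata1 (19 deletions) and Myb (62), the transferrin receptor Tfrc (33), the erythropoietin receptor Epor (22) and the carbonic anhydrase Car2 (185), but neither the transcription factor Klf1 at 428 RPKM nor Alas2, the first enzyme of heme synthesis. Proteasome subunits held a site in 20 of 31 genes, 64.5% (46.9 to 78.9), beside 48.6%, with Psmc5 at 363 deletions, Psma1 at 230 and Psmb2 at 210. Translation factors did in 19 of 36, 52.8%, beside 47.9%, with Eif4g2 at 419 deletions and Eif4h at 206. Nuclear-encoded subunits of the respiratory chain did in 30 of 59, 50.8%, beside 45.5%, and actin and its assembly factors in 10 of 19, 52.6%, beside 42.7%.

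Most of the other groups stood under the share of like genes. Cytosolic ribosomal proteins held a site in 22 of 79 genes, 27.8% (19.2 to 38.6), beside 36.0%. Rps24 (289 deletions) and Rplp1 (182) carried many, while Rpl4, Rpl41 and Rplp0, all above 1000 RPKM, had none. Genes with near-identical copies, ribosomal proteins among them, have uncertain RPKM. Cleavage and polyadenylation factors, which read the signal in the nucleus, held a site in 3 of 18 genes, 16.7% (5.84 to 39.2), beside 29.1%: Cpsf7, Cstf2 and Fip1l1, each with a site at the start of a signal. Genes for proteins that bind the tail, shorten it or degrade mRNA held a site in 8 of 40, 20.0%, beside 24.2%. Among them Paip2, an inhibitor of PABPC1, had 76 deletions and the deadenylase subunit gene Pan3 had 40, while Pabpc1 had none. Replication-dependent histone mRNAs, most of which end in a stem-loop and carry no tail, held a site in 1 of 23 (Hist1h1a), beside 11.6%. The interval of each of the 12 groups included its share for like RPKM. Glycolytic enzymes did in 4 of 14, 28.6%, beside 39.8%, and hnRNP and SR proteins in 12 of 30, 40%, beside 41.1%. Cell cycle genes stood above, with 13 of 25, 52.0%, beside 44.4%.

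**Figure D5:**
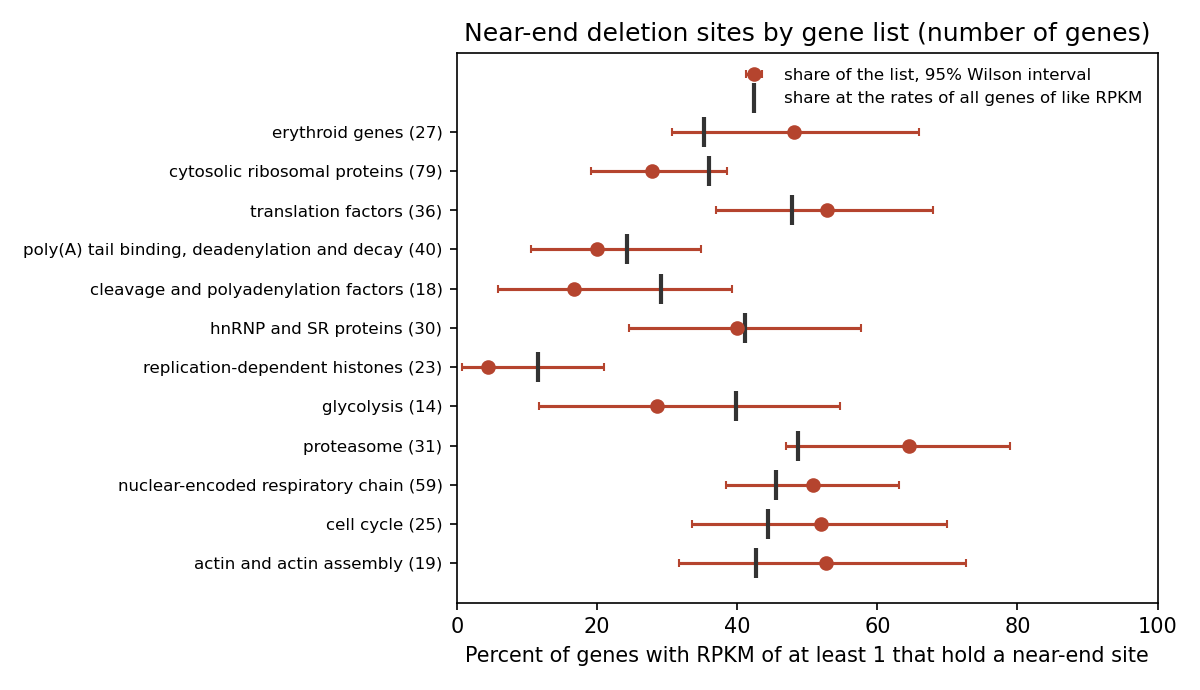
Percent of the genes of each group with RPKM of at least 1 that hold a near-end deletion site (points with 95% Wilson intervals), with the share that all protein-coding genes of like RPKM class would give (vertical ticks). Proteasome subunits stand at 64.5% and replication-dependent histones at 4.35%, and each tick lies within its group's interval.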

How the data were processed

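PABPC1 CLIP-seq was analysed as deposited, after the authors pooled 3 samples. The deletion list gives, for each base, the deposited count of tags with a deletion. A further count in its name field, never smaller, was read as the tags covering the base, which no label states, and every deletion share rests on that reading. The peak list gives a whole-number count per peak, read here as its height in tags, as no source used here gives its meaning. The RPKM values were computed by the authors for 2 mRNA-seq samples, 1 value a gene, per the labels. Build mm10, HTSeq 0.6.0, TopHat2 2.0.12, Novoalign 3.02.02 and cutadapt 1.4.2 are listed in the submitters' processing notes, with no roles.

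Sites were placed by strand on GENCODE M21 basic transcripts, in the order 3' UTR, 5' UTR, coding sequence, non-coding exon, intron. Distances are spliced and run to the nearest annotated end downstream. The placement was tested on simulated data. Signals and hexamers were searched on the sense strand of the transcript, for hexamers within 20 nt on either side where the transcript reaches that far. Of the RPKM identifiers 98.4% matched, and 290 did not. Python 3.11.15, pandas 2.3.3, numpy 2.4.6 and scipy 1.17.1 were used. Pooled lists leave no replicate spread, so no test over samples was made.

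The members and gene lists were chosen with earlier results of these data known. Named genes are the 10 with the most near-end deletions, the 10 with the most near-end sites, the 10 sites with the largest deletion share at 100 tags or more (1 a gene), members of the gene lists, and the 5 sites on either side of the 100 nt limit. Some genes that meet this rule are not reported here. The sites printed as sequences outside this rule, and the comparisons by strand, run of A, coverage class and place within ATATAA, were chosen after values were seen.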

Additional observations from a re-analysis of the deposited data

Results flagged for a closer look

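Outside the 3' UTR sites described above, 31 of 1409 deletion sites outside annotated genes lay 1 to 100 nt past an annotated end of a coding transcript on the same strand, 2.20% (95% Wilson interval 1.55 to 3.11). They drew attention as a signal in data that the comparisons do not use. The next 100 nt held 27 such sites. Of the 31, 11 lay within 10 nt of the end and 21 lay in a peak, and their median was 9 deletions in 62 tags.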

How the results depend on the processing

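Of 66 alternative values, 35 stayed within the interval of the reported value or within 1.5 times a reported count, and 31 moved. With sites within 10 nt joined, 45.5% of 3' UTR sites were near-end, the median offset from the signal was -1, the median deletion share 9.52% and the ATATAA share 6.92%. With 1 site a gene, 2178 sites remained in the count, 52.4% of 3' UTR sites were near-end, the median offset was -1, 61.1% lay 10 to 39 nt before the end, the deletion share was 10.5%, T 41.1%, ATATAA 7.99% and AATAAA 52.9%. With at least 12 deletions there were 2574 sites in 1435 genes, 50.8% near-end, with a signal within 50 nt at 81.1%, 59.5% at 10 to 39 nt, a deletion share of 9.22%, 98.3% in a peak and AATAAA at 51.9%. At less than 50 nt from an end, 33.9% were near-end, with a signal at 86.3%, a median offset of -1, 78.6% at 10 to 39 nt, T at 39.2%, AATAAA at 67.9% and AAAAAA at 10.6%. The share with a signal was 70.3% for AATAAA alone, 91.9% with 11 variants and 61.7% within 20 nt. Peaks of at least 74 tags held 90.5%. Ends of protein-coding transcripts alone moved none of the values. Under joining, 1 site a gene, at least 12 deletions and protein-coding ends alone, near-end sites stayed above distant sites in signal start (26.7 to 33.7%, against 8.82 to 11%) and below them in ATATAA (6.92 to 9.91%, against 10.9 to 16.3%). No paired analysis was possible because the CLIP-seq samples were deposited as pooled lists, and for the same reason no replicate could be left out. Sites at few tags limit the precision.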

Other observations

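Other motifs of 3' UTRs were counted within 20 nt of the deleted base, on the sense strand. TGTANATA, the motif of Pumilio proteins, lay by 2.88% of near-end sites (95% Wilson interval 2.36 to 3.50) and by 1.97% of distant sites (1.61 to 2.41). TGTA alone, which TGTANATA contains, lay by 30.3% of near-end sites (28.8 to 31.9) and by 24.9% of distant sites (23.7 to 26.2). TATTTAT, an AU-rich motif, lay by 1.65% of near-end sites and 1.39% of distant sites, and TTTTTT by 4.67% and 4.65%. The motifs were chosen after values were seen, and shares among all positions were not computed for them.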
